A study of Homo sapiens with 6 samples.

Results

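The 10 genes described here are the transcriptional coactivators YAP1 and WWTR1, their DNA-binding partner TEAD1, and 7 genes commonly read as targets of that complex, CTGF, CYR61, ANKRD1, AMOTL1, AMOTL2, AXL and LATS2. They were chosen by name from the counts table, in which CTGF and CYR61 keep their older symbols (CCN2 and CCN1 in current annotation). All 10 were found among 26899 listed genes, and all 10 were among the 15299 genes that passed the filter on low counts. Polyadenylated RNA of HK-2, a human kidney proximal tubule line transformed with human papillomavirus, was sequenced in 3 libraries labelled ANXA2 knockdown and 3 labelled control. Both groups came from the same line, and the growth protocol shared by them names plasmid transfection with a lipid reagent. The control libraries are titled wild type but described as shCtrl, so the labels leave unsettled whether they received a control hairpin. Nothing in the labels says that replicates were separate cultures, so p-values measure only the spread between these libraries, which may be technical. Cell density and cell shape were not recorded in the labels.

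YAP1 and WWTR1 (also called TAZ) carry no DNA-binding domain and act on genes through the TEAD transcription factors. In crowded or rounded cells the Hippo kinases, ending in LATS1 and LATS2, phosphorylate both coactivators and hold them in the cytoplasm. In spread cells on a stiff surface they enter the nucleus, and secreted matricellular proteins such as CTGF and CYR61 are transcribed. Several targets, among them LATS2 and the angiomotin-like genes, act back on the pathway as inhibitors. In kidney tubule cells the pathway is known for its part in repair and in fibrosis. YAP1 and WWTR1 are controlled largely at the protein level, which RNA counts do not show.

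Promoter sequences were read to see which of these genes carry the TEAD recognition letters near their start. RefSeq promoter entries on GRCh38.p14 matched 8 of the 10 genes, all but CYR61 and TEAD1. In the 250 bases before the start site, GGAATG was searched on both strands, and it was present at least 1 time in 11.9% of 35116 promoter windows. CTGF held 3 matches, a number reached by 0.0826% of windows, and ANKRD1 held 2, reached by 0.94%. The CTGF matches began 169, 104 and 95 bases before the start site, and those of ANKRD1 began 220 and 128 bases before it. These windows are printed because CTGF and ANKRD1 held the most matches, with the GGAATG matches in capitals. The CTGF window is chr6:131951373-131951622 and that of ANKRD1 is chr10:90921088-90921337, each given 5′ to 3′ along the minus strand of the genome.
CTGF: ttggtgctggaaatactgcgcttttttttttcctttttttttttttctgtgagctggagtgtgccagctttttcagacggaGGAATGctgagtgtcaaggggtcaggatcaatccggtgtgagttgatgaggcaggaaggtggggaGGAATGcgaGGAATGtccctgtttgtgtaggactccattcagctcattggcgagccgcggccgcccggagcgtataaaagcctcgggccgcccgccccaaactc
ANKRD1: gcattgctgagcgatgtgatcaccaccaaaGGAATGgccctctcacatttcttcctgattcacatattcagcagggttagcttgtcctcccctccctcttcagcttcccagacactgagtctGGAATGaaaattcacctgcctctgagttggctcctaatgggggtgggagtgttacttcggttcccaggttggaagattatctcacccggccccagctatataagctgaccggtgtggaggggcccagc

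AMOTL2, AXL and YAP1 each held 1 match, and for AMOTL2 and AXL it lay at the second of their listed start sites. The stretches around these matches are shown to place them beside those of CTGF and ANKRD1, with the match in capitals (CATTCC is GGAATG on the other strand). They are chr3:134374494-134374533 on the minus strand for AMOTL2, chr19:41226526-41226565 on the plus strand for AXL and chr11:102110268-102110307 on the plus strand for YAP1.
AMOTL2: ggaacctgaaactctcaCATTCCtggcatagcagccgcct
AXL: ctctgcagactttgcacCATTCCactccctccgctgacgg
YAP1: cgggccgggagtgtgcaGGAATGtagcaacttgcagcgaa
The windows of AMOTL1, LATS2 and WWTR1 held no match. For AMOTL1 (start site 94768356) and WWTR1 (start sites 149703273 and 149658025) the listed start sites lay inside the GENCODE gene spans given below. The bases before the GENCODE starts of these genes, 94706431 and 149736714, were therefore not searched. The AP-1 letters TGANTCA, present in 6.57% of windows, occurred 1 time, in ANKRD1. No window of these genes held the CArG box bound by SRF, which 1.16% of windows held. A match of letters is a description of sequence, and binding was not measured.

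Libraries held 24231267 to 34561675 counted reads. ANXA2, the targeted gene, was at 1538, 1561 and 1519 CPM in knockdown-labelled replicates 1, 2 and 3 and at 1658, 1461 and 1675 CPM in control-labelled replicates 1, 2 and 3. CPM here are counts scaled to the reads of a library in the tested genes, with TMM factors applied. Its groups overlapped, the edgeR adjusted p was 0.848, and the 95% interval of the difference ran from -14.3% to 8.29%, so the RNA level does not bear out the labels and groups are named by label throughout. Of 13 tubule and epithelial markers analysed here 8 stayed above 1 FPKM in each library, among them PAX8, KRT8 and GGT1, whereas ANPEP, AQP1, LRP2 and CUBN were at no more than 0.05 FPKM. Summed leukocyte markers (4 analysed of 6) lay between 1.49 and 2.33 FPKM in control-labelled libraries and between 1.74 and 3.11 FPKM in knockdown-labelled ones. Endothelial markers (2 of 4) summed to at most 0.07 FPKM, and fibroblast markers (4 of 6) summed to 8.42 to 10.03 and 7.87 to 8.79 FPKM, mostly LUM. In bulk RNA a smaller share of cells expressing a gene and less of its RNA per cell cannot be told apart. The libraries with the fewest reads, control-labelled replicate 1 and knockdown-labelled replicate 3, lay together at one end of principal component 1 (38.8% of the variance), where the labels intermixed. On principal component 2 (27.1%) the labels did not overlap. Knockdown-labelled replicates 1, 2 and 3 were at 16.6, 15.7 and 13.6 there, and control-labelled ones at -18.4, -29.7 and 2.27.

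In order to place the genes by abundance, deposited FPKM values, which are scaled for transcript length, were compared between genes. CYR61, an integrin-binding matricellular protein, was the most abundant at 435 ± 34.5 FPKM over the 6 libraries (SD, n = 6), above 99.1% of tested genes. AXL, the receptor tyrosine kinase for GAS6, followed at 130 ± 18.7 FPKM, and WWTR1 was next at 52.1 ± 7.66 FPKM. ANKRD1, a nuclear and sarcomeric ankyrin-repeat protein, was at 33.4 ± 6.93 FPKM, CTGF at 32.3 ± 6.78 FPKM and AMOTL2, a junctional scaffold that binds YAP1, at 28.0 ± 2.61 FPKM. From WWTR1 to AMOTL2 the ranges of neighbours in this order overlapped. WWTR1 was still above ANKRD1, CTGF and AMOTL2 within each library. The ranges of ANKRD1, CTGF and AMOTL2 overlapped one another, so the order of these was not resolved by range. YAP1 (7.30 ± 1.00 FPKM), the kinase LATS2 (4.80 ± 0.349 FPKM), TEAD1 (3.52 ± 0.633 FPKM) and the scaffold AMOTL1 (1.43 ± 0.304 FPKM) were lower, and none of these neighbours overlapped in range.

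**Figure D1:**
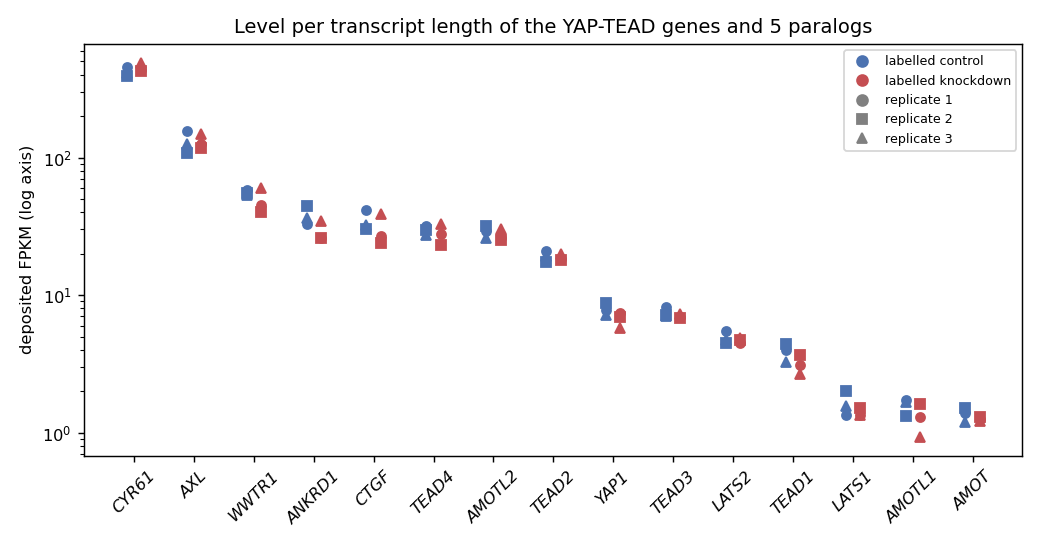
Deposited FPKM on a log axis for the 10 YAP-TEAD genes and 5 paralogs, 1 point per library, blue for libraries labelled control and red for those labelled knockdown, with marker shape giving the replicate number. CYR61 lay between 394 and 489 FPKM and AMOTL1 between 0.93 and 1.74 FPKM, and the colours intermix for each of the 10 genes.

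Within paralog groups the per-length levels differed in the same order in all 6 libraries for the coactivators. WWTR1 exceeded YAP1 by 6.32- to 7.46-fold in control-labelled libraries and by 5.84-, 6.13- and 10.4-fold in knockdown-labelled replicates 2, 1 and 3. Among the TEAD factors, TEAD4 ranged from 23.25 to 32.76 FPKM, TEAD2 from 17.44 to 20.97 FPKM, TEAD3 from 6.83 to 8.13 FPKM and TEAD1 from 2.65 to 4.41 FPKM. TEAD1 was therefore the least abundant of the 4 TEAD transcripts, with no overlap between neighbouring ranges. LATS2 exceeded its paralog LATS1 by 2.23- to 4.07-fold. AMOTL2 exceeded AMOTL1 by 15.6- to 32.3-fold, whereas AMOT (1.19 to 1.50 FPKM) and AMOTL1 overlapped. CYR61 exceeded CTGF, a paralog in the CCN family, by 11.0- to 13.0-fold in control-labelled libraries and by 12.7- to 17.6-fold in knockdown-labelled ones.

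To ask whether the genes differed between the labels, all 15299 tested genes were fitted together in edgeR. None of the 10 genes passed a Benjamini-Hochberg adjusted p of 0.05 (0% of all tested genes did), and their adjusted p-values ran from 0.605 to 0.981. At an unadjusted p under 0.05 there was 1 of the 10, ANKRD1, beside 8.18% of all tested genes. There were 0 of the 10 without control-labelled replicate 2 (4.71% of all tested genes) or knockdown-labelled replicate 1 (3.21%). There was 1 without control-labelled replicate 1 (12.4%), and there were 3 without knockdown-labelled replicate 3 (8.23%). In limma-voom, DESeq2 and both limma fits on FPKM, 0 genes of the 10 likewise passed the adjusted threshold. The knockdown-labelled and control-labelled groups overlapped for each of the 10 genes, while 15.6% of all tested genes had groups that did not. Estimates were below 0 for 8 of the 10 and above 0 for CYR61 and AXL (AXL below 0 with scaling by library size only), with a median log2 fold change of -0.20 beside -0.0065 over all tested genes, of which 49% had estimates above 0. That median was -0.072 without knockdown-labelled replicate 2 and -0.10 without control-labelled replicate 1, and 9 of the 10 estimates were below 0 when counts were scaled by library size only. For the 7 target genes alone, with all libraries, the median was -0.074, with 5 estimates below 0 and 2 above.

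**Figure D2:**
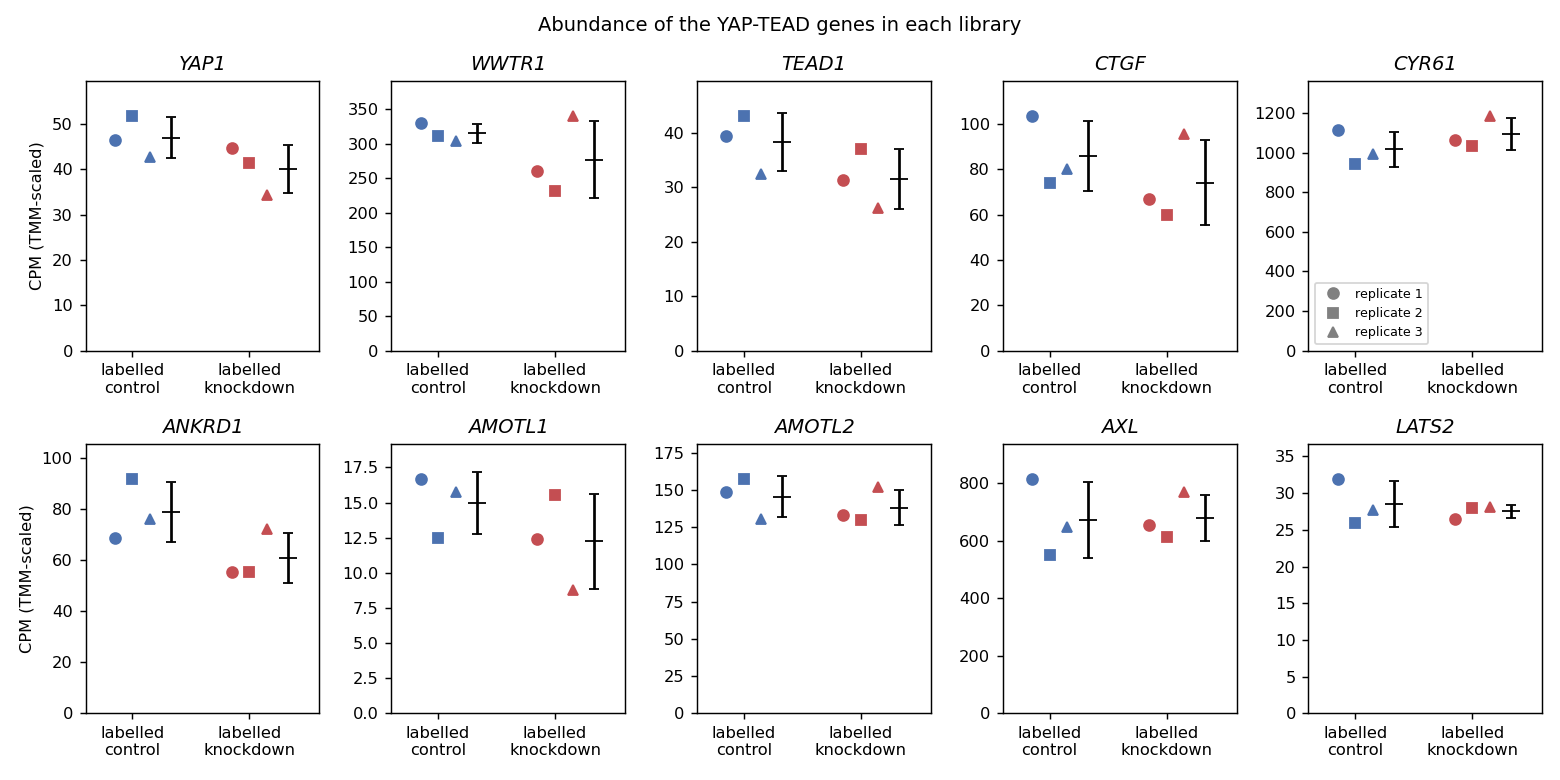
TMM-scaled CPM of each gene in each library, with blue points for libraries labelled control, red for those labelled knockdown, marker shape for the replicate number, and black bars for the mean ± SD of 3 libraries. The groups overlap in each of the 10 panels, and knockdown-labelled replicate 3 lies apart from replicates 1 and 2 for WWTR1, CTGF and ANKRD1.

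YAP1 (ENSG00000137693.13, chromosome 11, 102110447 to 102233424, plus strand, GRCh38) was at 46.5, 51.7 and 42.7 CPM in control-labelled replicates 1, 2 and 3 and at 44.6, 41.5 and 34.2 CPM in knockdown-labelled replicates 1, 2 and 3. Only knockdown-labelled replicate 1 reached into the control range, while replicates 2 and 3 lay below it. Means were 40.1 ± 5.32 CPM against 47.0 ± 4.52 CPM (knockdown against control label, SD, n = 3), and the exact permutation test gave p = 0.2. By edgeR the log2 fold change was -0.23 (SE 0.131, adjusted p 0.647), and its 95% interval ran from a difference of -30.4% to one of 4.86%. The YAP1 estimate was -0.12 without knockdown-labelled replicate 3 and -0.15 without control-labelled replicate 2. It was -0.31 without knockdown-labelled replicate 1 and -0.29 without control-labelled replicate 3.

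WWTR1 (ENSG00000018408.14, chromosome 3, 149517235 to 149736714, minus strand) was at 329.1, 311.2 and 303.4 CPM in control-labelled replicates 1, 2 and 3. In knockdown-labelled replicates 1, 2 and 3 it was at 260.3, 230.7 and 339.6 CPM. Replicates 1 and 2 lay below each control-labelled library, and replicate 3 was the highest of the 6. For WWTR1 edgeR gave a log2 fold change of -0.18 (SE 0.135, adjusted p 0.715), and the interval ran from -28.8% to 8.77%. Without knockdown-labelled replicate 3 the estimate was -0.36 (adjusted p 0.549), and without replicate 2 it was -0.065. The antisense gene WWTR1-AS1, whose exons overlap, held 19 to 39 reads per library against at least 7619 for WWTR1.

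TEAD1 (ENSG00000187079.14, chromosome 11, 12674421 to 12944737, plus strand), which brings both coactivators to DNA, was at 39.5, 43.1 and 32.5 CPM in control-labelled replicates 1, 2 and 3. The knockdown-labelled replicates were at 31.3, 37.1 and 26.2 CPM, of which replicate 2 alone lay inside the control range and the others below it. The estimate by edgeR was -0.28 on the log2 scale (SE 0.158, adjusted p 0.642), with an interval from -35.7% to 5.25%. It was -0.16 without knockdown-labelled replicate 3 and -0.19 without control-labelled replicate 2, the library in which TEAD1 was highest. In the other direction it was -0.41 without knockdown-labelled replicate 2 (edgeR adjusted p 0.786) and -0.39 without control-labelled replicate 3 (edgeR adjusted p 0.561). TEAD1 and YAP1 shared their extremes, since control-labelled replicate 2 was the highest and knockdown-labelled replicate 3 the lowest library for each. The other TEAD genes had estimates nearer to 0, at -0.033 for TEAD2, -0.068 for TEAD3 and -0.077 for TEAD4, with adjusted p-values from 0.884 to 0.946.

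CTGF (ENSG00000118523.5, chromosome 6, 131948176 to 131951372, minus strand), whose promoter held the 3 GGAATG matches shown above, was at 103.4, 74.1 and 80.0 CPM in control-labelled replicates 1, 2 and 3. It was at 66.8, 60.0 and 95.4 CPM in knockdown-labelled replicates 1, 2 and 3. Knockdown-labelled replicates 1 and 2 were the lowest of the 6 libraries, and replicate 3 was second to control-labelled replicate 1. Means were 74.0 ± 18.8 CPM against 85.8 ± 15.5 CPM (knockdown against control label, SD, n = 3), and the exact permutation test gave p = 0.5. Against that spread, the edgeR log2 fold change was -0.21 (SE 0.188, adjusted p 0.752) with an interval from -35.6% to 15.6%. Single libraries decided that estimate, which was -0.43 without knockdown-labelled replicate 3 and -0.057 without control-labelled replicate 1. CTGF varied more within groups than 92.0% of the 1689 tested genes whose mean CPM lay within 0.5 log2 units of its own.

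CYR61 (ENSG00000142871.15, chromosome 1, 85580761 to 85584589, plus strand) held 27215 to 36315 reads per library. Its CPM were 1116, 941.6 and 992.1 in control-labelled replicates 1, 2 and 3 and 1064, 1035 and 1184 in knockdown-labelled ones. Knockdown-labelled replicate 3 was highest, and the other pair lay inside the control range. By edgeR its log2 fold change was 0.11 (SE 0.0900, adjusted p 0.741), which was 0.048 without knockdown-labelled replicate 3, 0.056 without control-labelled replicate 2 and 0.18 without control-labelled replicate 1. Its interval from -6.47% to 23.9% was the narrowest on the log2 scale among the 10 genes. CTGF and CYR61, secreted proteins of the same family, thus had estimates on opposite sides of 0, and whether their differences were unequal was not tested.

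ANKRD1 (ENSG00000148677.6, chromosome 10, 90912096 to 90921087, minus strand), whose window above held 2 GGAATG matches, had the lowest estimate of the 10 genes. It was at 68.7, 91.9 and 76.2 CPM in control-labelled replicates 1, 2 and 3 and at 55.4, 55.3 and 72.1 CPM in knockdown-labelled replicates 1, 2 and 3. Knockdown-labelled replicates 1 and 2 nearly coincided below the others, and replicate 3 lay between control-labelled replicates 1 and 3. Means were 60.9 ± 9.69 CPM against 78.9 ± 11.8 CPM (knockdown against control label, SD, n = 3), and the exact permutation test gave p = 0.2, where 0.1 is the smallest that 3 against 3 allows. In edgeR this was a log2 fold change of -0.37 (SE 0.147, unadjusted p 0.0310, adjusted p 0.605). The interval, from -38.7% to -2.90%, is not corrected for the number of genes tested. The unadjusted edgeR p rose above 0.05 when any of 4 libraries was left out, at 0.115 without control-labelled replicate 2 (log2 fold change -0.25), 0.0534 without control-labelled replicate 3, 0.118 without knockdown-labelled replicate 1 and 0.106 without knockdown-labelled replicate 2.

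**Figure D3:**
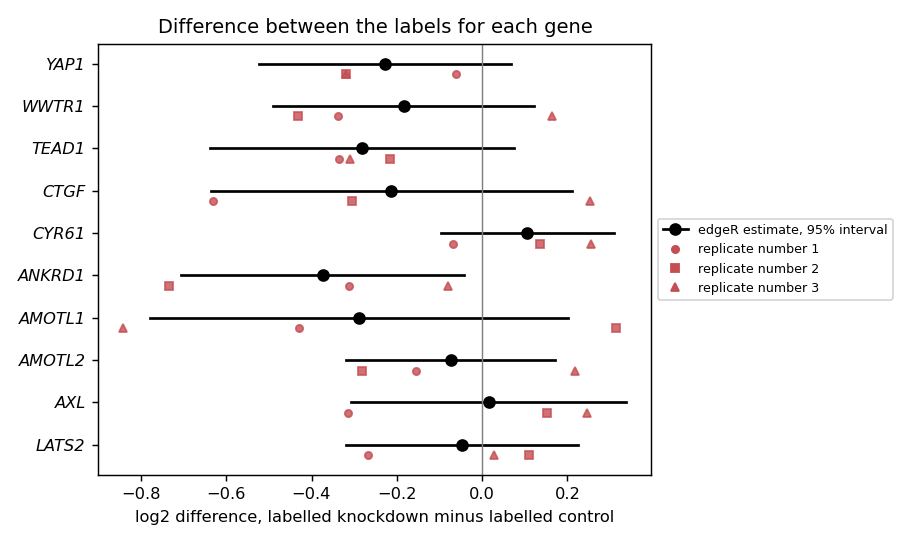
The x axis gives the log2 difference between libraries labelled knockdown and control for each gene, with black points and lines for the edgeR estimate and its 95% interval and red markers for the difference within each replicate number. ANKRD1 alone has an interval that stops short of 0 (-0.71 to -0.04; its unadjusted p rose above 0.05 when any of 4 libraries was left out), and the red markers fall on both sides of 0 for 7 of the 10 genes.

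The differences within each replicate number were compared in turn. ANKRD1 (-0.31, -0.73 and -0.079 on the log2 scale for numbers 1, 2 and 3), TEAD1 (-0.34, -0.22 and -0.31) and YAP1 (-0.061, -0.32 and -0.32) were below 0 at each number. The other 7 genes had at least 1 difference of either sign. CTGF gave -0.63, -0.31 and 0.25, CYR61 gave -0.068, 0.14 and 0.26, and AMOTL1 gave -0.43, 0.31 and -0.84. Libraries of the same number were not found to deviate together. The labels do not say whether the numbers pair samples, so these values are not read as pairs.

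AMOTL1 and AMOTL2 encode angiomotin-like scaffolds that hold YAP1 at junctions and actin. AMOTL1 (ENSG00000166025.17, chromosome 11, 94706431 to 94876748, plus strand) was at 16.7, 12.5 and 15.8 CPM in control-labelled replicates 1, 2 and 3 and at 12.4, 15.5 and 8.80 CPM in knockdown-labelled replicates. Its lowest library, knockdown-labelled replicate 3 with 254 reads, gave it the widest range of the 10 genes, 1.90-fold from lowest to highest. For AMOTL1 edgeR gave a log2 fold change of -0.29 (SE 0.217, adjusted p 0.717), which was -0.10 without that library and -0.49 without knockdown-labelled replicate 2. AMOTL2 (ENSG00000114019.14, chromosome 3, 134355347 to 134375479, minus strand) was at 148.3, 157.4 and 130.6 CPM in control-labelled replicates 1, 2 and 3. The knockdown-labelled replicates were at 133.2, 129.5 and 151.8 CPM, and the ranges nearly coincided. AMOTL2 had an edgeR log2 fold change of -0.074 (SE 0.109, adjusted p 0.858) and an interval from -19.8% to 12.5%, and the estimate ran from -0.15 without knockdown-labelled replicate 3 to -0.012 without control-labelled replicate 2. Its exons overlap those of the pseudogene RPL39P5 on the same strand, which held 435 to 702 reads, so AMOTL2 counts are uncertain to that extent.

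AXL (ENSG00000167601.11, chromosome 19, 41219223 to 41261766, plus strand) was at 815.6, 552.1 and 648.6 CPM in control-labelled replicates 1, 2 and 3. In knockdown-labelled replicates 1, 2 and 3 it was at 655.5, 613.8 and 768.5 CPM, which is within the control range throughout. Its log2 fold change by edgeR was 0.015 (SE 0.143, adjusted p 0.981), and the interval ran from -19.2% to 26.4%. The sign of so small an estimate changed when counts were scaled by library size only (-0.0063), and it ran from -0.11 without control-labelled replicate 2 to 0.18 without control-labelled replicate 1.

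LATS2 (ENSG00000150457.8, chromosome 13, 20973036 to 21061586, minus strand), the kinase that phosphorylates both coactivators, was at 31.9, 25.9 and 27.6 CPM in control-labelled replicates 1, 2 and 3. The knockdown-labelled replicates were at 26.5, 28.0 and 28.2 CPM. These values differed little, and LATS2 varied less within groups than most genes of like abundance, of which 22.4% had a smaller spread. For LATS2 edgeR gave a log2 fold change of -0.048 (SE 0.121, adjusted p 0.925) and an interval from -19.9% to 16.8%. Without control-labelled replicate 1, its highest library, the estimate was 0.043.

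Some of the 10 genes shared their high and low libraries. Control-labelled replicate 1 and knockdown-labelled replicate 3, the libraries with the fewest reads, were the highest pair for 5 of the 10 genes (CTGF, CYR61, AXL, WWTR1 and LATS2) and the lowest pair for 0. Over all tested genes the same pair was highest for 11.8% and lowest for 13.9%. In knockdown-labelled replicate 3 the log2 deviation from the mean of the 6 libraries was 0.28 for CTGF, 0.21 for WWTR1, 0.20 for AXL and 0.17 for CYR61. In that library it was -0.60 for AMOTL1, -0.40 for TEAD1 and -0.34 for YAP1. The coactivator YAP1 and its partner TEAD1 were thus lowest in a library where the coactivator WWTR1 was high, as were CTGF, CYR61 and AXL. The part of depth or of other properties of that library pair in these differences was not tested.

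**Figure D4:**
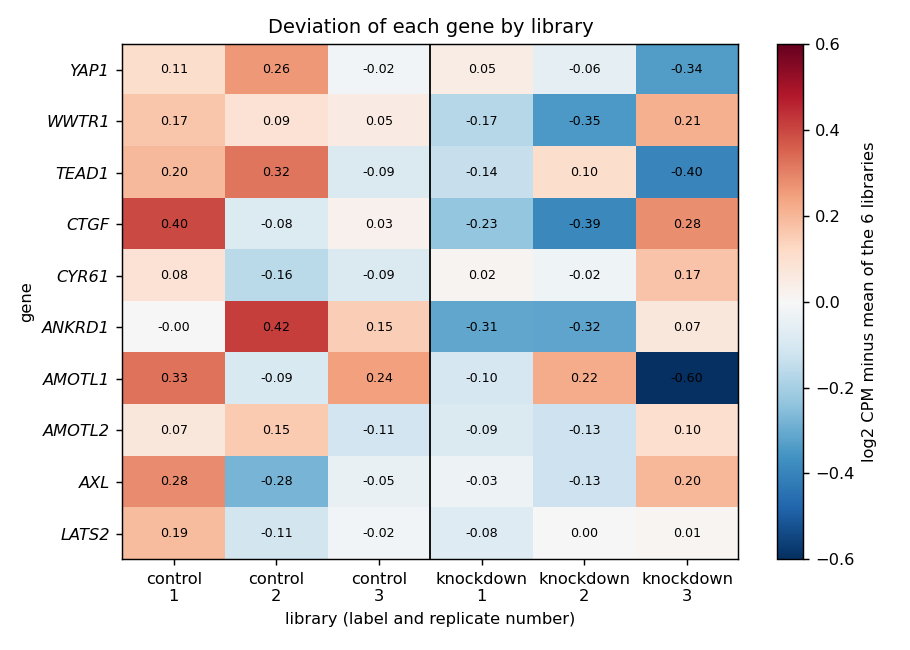
Log2 CPM of each gene minus its mean over the 6 libraries, as coloured and printed values, with libraries labelled control to the left of the black line and those labelled knockdown to the right. The columns for control 1 and knockdown 3 are both positive for CTGF (0.40 and 0.28), and the knockdown 3 column holds the lowest value of AMOTL1 (-0.60).

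Leaving out both of those libraries, a comparison chosen after the values were seen, left 2 against 2. Again 0 of the 10 genes passed the edgeR adjusted threshold, with 3 of the 10 at an unadjusted p under 0.05 beside 14.8% of the genes tested in that fit. These were ANKRD1 (log2 fold change -0.60, adjusted p 0.189), WWTR1 (-0.32, adjusted p 0.226) and CTGF (-0.28, adjusted p 0.299). For each of them the remaining knockdown-labelled libraries lay below the remaining control-labelled ones, as was so for 25% of all tested genes. The estimate for AMOTL1 was -0.016 and that for CYR61 was 0.12 in the same fit.

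The remainder of the pathway was read from lists written from general knowledge. No gene of the 5 lists passed the edgeR adjusted threshold in either direction, and 7 of their 56 tested genes had an unadjusted p under 0.05 beside 8.18% of all tested genes. That number was 6 to 8 under the other scalings and tools, beside 4.78% (DESeq2, with 58 list genes) to 8.64% (limma-voom) of all genes. Without the low-count filter it was 11 of 58, beside 7.73% of all genes. With 1 library left out it ran from 3 without knockdown-labelled replicate 1 (3.21% of all tested genes) to 13 without control-labelled replicate 1 (12.4%). It was 4 without control-labelled replicate 2 (4.71%). Of 16 kinases and upstream regulators of the Hippo pathway, 13 had estimates below 0 (14 with scaling by library size only), with a median log2 fold change of -0.21 (-0.11 without knockdown-labelled replicate 3), close to the median of the 10 genes above. The 4 with the largest differences were MOB1B (-0.38), the kinase cofactor MOB1A (-0.37), the kinase STK3 (-0.37, but -0.18 without control-labelled replicate 2) and TAOK3 (-0.33, but -0.17 without knockdown-labelled replicate 3), with adjusted p-values from 0.599 to 0.638. MOB1A was at 117.7, 139.0 and 125.8 CPM in control-labelled replicates 1, 2 and 3 and at 92.4, 96.7 and 106.8 CPM in knockdown-labelled ones, which did not overlap. Groups also failed to overlap for STK4 and WWC2, which were lower, and for TAOK2, which was higher at 0.15 (named after their values were seen). That is 4 of 16 listed genes, 3 lower and 1 higher, beside the 15.6% of all tested genes. STK4, which like STK3 activates the LATS kinases, was at 34.8, 37.2 and 35.7 CPM in control-labelled replicates 1, 2 and 3 against 29.3, 26.7 and 30.0 CPM in knockdown-labelled ones (log2 fold change -0.32, edgeR adjusted p 0.599). The estimate for LATS1 was -0.22 and that for AMOT was -0.094, and their groups overlapped.

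Of 15 further genes often listed as YAP-TEAD targets, 14 were tested, and 6 had estimates above 0 and 8 below, with a median of -0.035. Those with the largest differences were IGFBP3, a binding protein of insulin-like growth factors, F3, which encodes tissue factor, NT5E, an ecto-nucleotidase, and the kinase NUAK2. IGFBP3 was at 201.0, 127.3 and 168.5 CPM in control-labelled replicates 1, 2 and 3 and at 210.8, 213.0 and 216.7 CPM in knockdown-labelled ones (log2 fold change 0.37, edgeR adjusted p 0.605). In the same order F3 was at 128.2, 85.7 and 114.2 CPM against 140.8, 136.6 and 143.3 CPM (0.36, adjusted p 0.605). NUAK2 was at 90.2, 88.9 and 92.3 CPM against 113.3, 109.3 and 121.4 CPM (0.34, adjusted p 0.599). For these 3 genes each knockdown-labelled library lay above each control-labelled one, and the estimates of IGFBP3 and F3 were 0.21 and 0.21 without control-labelled replicate 2. In all, groups did not overlap for 5 of the 14 beside 15.6% of all tested genes, the others being ASAP1 and RBMS3, which were lower (named after their values were seen). NT5E was at 77.6, 128.8 and 120.7 CPM against 80.6, 96.1 and 78.4 CPM, with overlapping groups (log2 fold change -0.36, but -0.22 without control-labelled replicate 2 and -0.55 without control-labelled replicate 1). FOXF2, the gene not tested, held at most 3 reads in a library.

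**Figure D5:**
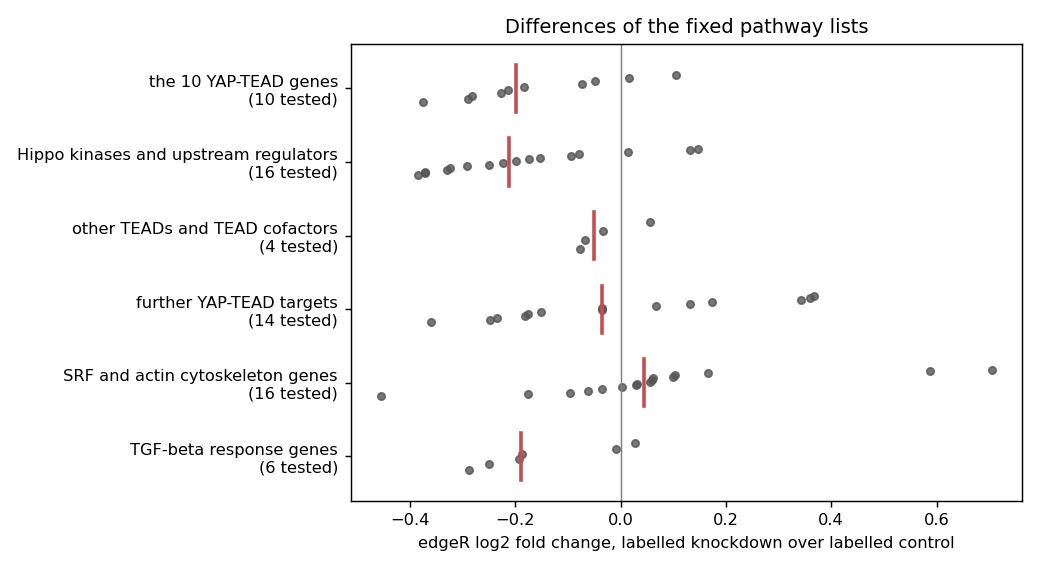
Each grey point is the edgeR log2 fold change of a tested gene (x axis, libraries labelled knockdown over control) and each red bar is the median of its list (y axis). Medians of the 10 YAP-TEAD genes (-0.20) and of the Hippo regulators (-0.21) lie below 0, and that of the SRF and actin genes (0.044, but -0.054 without control-labelled replicate 2) lies above it. The 7 target genes among the 10 had a median of -0.074 (not drawn).

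Actin cytoskeleton genes driven by SRF, which also respond to cell spreading, were compared as a further set. The list also held SRF itself and its coactivators MKL1 and MKL2. Of 16 tested genes 11 had estimates above 0 (10 with scaling by library size only), with a median of 0.044, but the median was -0.054 and only 6 estimates were above 0 without control-labelled replicate 2. ACTB was at 4039 to 5372 FPKM and FLNA at 351.7 to 503.3 FPKM, and their log2 fold changes of -0.095 and 0.17 (chosen after their values were seen) had edgeR adjusted p-values of 0.795 and 0.704. The largest differences were in genes of low level, TPM2 (0.70, at most 0.68 FPKM), ACTA2 (0.59, at most 1.29 FPKM) and the SRF coactivator MKL2 (-0.45, at most 1.02 FPKM), followed by FHL2 (-0.18). TPM2 held 79 reads in knockdown-labelled replicate 2 and 9 to 35 in the other libraries, and its estimate was -0.43 without that library. Groups did not overlap for 2 of the 16, ACTA2 and MKL2, beside 15.6% of all tested genes. Of 6 genes induced by TGF-beta, a cytokine that also raises CTGF, 5 had estimates below 0 with a median of -0.19. That number was 4 with upper-quartile scaling or without replicate 3 of either label, and 6 without replicate 2 of either label. The genes below 0 were led by SMAD7 (-0.29), LTBP2 (-0.25), TGFBI (-0.19) and SKIL (-0.19), with edgeR adjusted p-values from 0.605 to 0.752. LTBP2 ran from -0.31 without knockdown-labelled replicate 2 to -0.14 without knockdown-labelled replicate 3. SKIL ran from -0.34 without control-labelled replicate 1 to -0.051 without control-labelled replicate 2. Groups did not overlap for 2 of the 6, TGFBI and LTBP2, beside the same 15.6%. Of 7 listed TEAD factors and cofactors beside TEAD1, 4 were tested and 3 had estimates below 0 (the TEADs given above), with a median of -0.050 that turned to 0.024 without control-labelled replicate 1 and to 0.0071 without knockdown-labelled replicate 2. The cofactor VGLL4 had an estimate of 0.055, VGLL3 held at most 1 read in a library, and VGLL1 and VGLL2 were not analysed here.

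Genes whose pattern was most like the mean log2 CPM of CTGF, CYR61 and ANKRD1 were sought among 8905 genes with a mean of at least 10 CPM. The nearest were RNF138, TMEM189-UBE2V1, HRSP12, SRSF3 and CCNI, with Pearson correlations of 0.990 to 0.998 over 6 libraries, which is a description of the best of many candidates. Pearson correlations between the averaged genes were 0.55 (CTGF and CYR61), 0.43 (CTGF and ANKRD1) and -0.39 (CYR61 and ANKRD1). Their mean is therefore a composite and not a pattern that each of them followed. RNF138 was at 16.0, 14.5 and 13.9 CPM in control-labelled replicates 1, 2 and 3 and at 10.7, 10.2 and 16.3 CPM in knockdown-labelled ones. Like CTGF, it was low in knockdown-labelled replicates 1 and 2 and high in replicate 3. TMEM189-UBE2V1 is a readthrough gene that shares exons with its neighbours, so its counts are uncertain.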

How the data were processed

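RNA-seq of 6 HK-2 libraries was analysed. The authors deposited raw read counts per gene and FPKM values rounded to 2 decimals. Per the submitters' processing notes, bcl2fastq, TopHat2, edgeR and GRCh38 were used, without roles. Which counting program, annotation and strand setting were used was not given in the sources. Counts (24231267 to 34561675 per library) were filtered with filterByExpr defaults, scaled by TMM and tested in edgeR 4.0.16 (R 4.3.3) by the two-sided quasi-likelihood test without covariates, adjusted by Benjamini-Hochberg over 15299 genes at 0.05. Standard errors and 95% intervals came from unshrunk coefficients, and single genes were also compared by exact two-sided permutation. The fits were tested on simulated data. Alternatives were other scalings, no filter, DESeq2 1.42.0 (without the low-count filter), limma 3.58.1 (voom, and trend on log2(FPKM + 1) and log2(FPKM + 0.1)), a replicate block and the omission of each library. All fits used the counts as deposited or the FPKM as deposited.

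The 10 genes and all lists were chosen with earlier results of these data known. The text names those genes, ANXA2, the 4 genes with the largest difference in each list, paralogs of the 10, and the 5 genes most alike in pattern. Other genes were named after their values were seen. Gene locations are from GENCODE release 44 and promoters from RefSeq, both on GRCh38. Replicates differed beyond sampling noise (chi-square per degree of freedom 9.74 to 50.3), so each library counted as 1 sample. One tubule marker is not reported here.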

Additional observations from a re-analysis of the deposited data

How the results depend on the processing

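The number of the 10 genes past the adjusted threshold was 0 under each of the 16 alternatives, as was the number for the pathway lists. Over all genes the count was 0 in edgeR (1251 at an unadjusted p under 0.05), 165 without the low-count filter and 31 in DESeq2. The DESeq2 fit was also made without that filter, on 26899 genes, so tool and filter both differ there. It was 0 to 4 when 1 library was left out and 6 without both control-labelled replicate 1 and knockdown-labelled replicate 3, chosen after seeing the data, and the cause was not tested. ANXA2 kept its direction throughout, from -0.11 to -0.015. Of 160 estimates for the 10 genes under alternatives, 154 kept direction and side of the threshold and 6 changed sign. AXL was -0.0063 with library-size scaling and spanned -0.1066 to 0.1792 when 1 library was left out. LATS2 spanned -0.1108 to 0.0428 in the same way and was 0.0277 without both libraries. Same-numbered libraries deviated with correlations of -0.088, 0.168 and -0.259 across genes, and not every library matched its own number best. With the replicate block edgeR gave 0 genes (1076 at an unadjusted p under 0.05), 0 of the 10 (2 at an unadjusted p under 0.05, ANKRD1 and TEAD1), 0 of the lists and -0.0515 for ANXA2. The 95% intervals given for the genes are the ranges of difference compatible with 3 libraries per label at this depth.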
